A study of Mus musculus with 6 samples.

Results

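The genes described here are the neuropeptide genes *Kiss1* and *Gal* and the genes of their receptors, *Kiss1r*, *Galr1*, *Galr2* and *Galr3*, in ribosome-bound RNA from the medial amygdala (MeA) of female mice. Members were taken from the table of log2 CPM (read counts scaled to library size, on a log2 scale) by their symbol. Of the 6 symbols 5 were listed, in 6 of the 13886 rows, because *Kiss1* stands for 2 gene models. *Galr2* is not among the listed genes. The set was selected on measured values: *Kiss1* and *Gal* were chosen by their difference between the treatment groups in these same samples, so the differences of all members between treatments are given as a description, with no test.

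The mice were Kiss1Cre+/Rpl22HA+/+ females, in which Cre from the *Kiss1* gene turns on a haemagglutinin (HA) tag on the ribosomal protein RPL22, so that ribosomes of cells that express Cre, or did so earlier, can be pulled down with an antibody. Ovaries were removed (OVX) from all females at an age of 8 weeks, and the females were given estradiol (E2) for 4 days and then kept without it for 7 days. They then received E2 for 5 days (E2 group) or none (OVX group). There were 3 samples per group, each from MeA micropunches pooled from 4 brains, and scaled library sizes were 28.1M to 34.2M reads. Input RNA and RNA from females without Cre were not analysed here, so enrichment of a gene by the pulldown could not be computed.

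*Kiss1* encodes the precursor of the kisspeptins, which act on the receptor encoded by *Kiss1r* and are best known for driving gonadotropin-releasing hormone (GnRH) neurons. *Gal* encodes the precursor of galanin, a peptide that acts on the receptors GALR1, GALR2 and GALR3. The kisspeptin receptor couples to Gq proteins and phospholipase C, and GALR1 and GALR3 couple to Gi/o proteins, which lower cAMP. In rodents estradiol raises *Kiss1* in the amygdala and in the anteroventral periventricular nucleus and lowers it in the arcuate nucleus.

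The coding stretches of the active peptides are shown because they are what the measured peptide transcripts carry. They were read 5′ to 3′ from the GENCODE release 21 transcripts (GRCm38). Capitals mark the codons of the peptide, and lower case letters mark 15 bases before it and the codons after it, where the precursor is cut.
Kisspeptin-10, codons 106 to 115 of 126 in *Kiss1*, plus strand, chr1:133329580-133329609: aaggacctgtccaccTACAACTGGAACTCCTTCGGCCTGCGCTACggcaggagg
Galanin, codons 33 to 61 of 141 in *Gal*, minus strand, chr19:3413295-3413334 and chr19:3411601-3411647: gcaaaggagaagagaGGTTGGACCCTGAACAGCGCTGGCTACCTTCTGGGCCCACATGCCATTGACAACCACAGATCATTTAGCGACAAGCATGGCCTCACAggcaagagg
The 30 coding bases of kisspeptin-10 lie in 1 exon, whereas the 87 coding bases of galanin are split between 2 exons.

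The 2 *Kiss1* models overlap on the plus strand of chromosome 1. ENSMUSG00000115958 runs from 133309827 to 133329722 and has 3 transcripts, and ENSMUSG00000116158 runs from 133321875 to 133329901 and has 2. All 5 transcripts have the same coding sequence of 378 bases, in exons at 133327250 to 133327340 and 133329356 to 133329642, so both models encode the same precursor. The models share 498 exonic bases. A further 243 exonic bases are only in ENSMUSG00000115958, and 281 are only in ENSMUSG00000116158, of which 102 are in an upstream exon and 179 at the 3′ end. None of the bases that differ is coding. Reads over the shared bases can only be divided between the models by the counting program. Another model, ENSMUSG00000098306, is not listed in the table. Its exons also hold all 281 bases particular to ENSMUSG00000116158 among the 2 models, and 85 of the 243 particular to ENSMUSG00000115958.

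**Figure D1:**
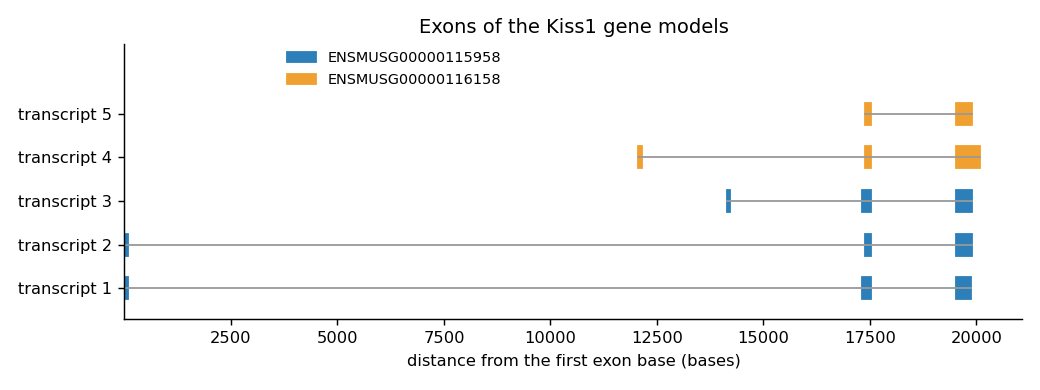
Exons of the 5 transcripts of the 2 gene models listed as *Kiss1*, by distance in bases from the first exon base. Boxes are exons and lines are introns. The models are those of GENCODE release 21, where ENSMUSG00000115958 is named *Gm28040*. The last 2 exons overlap in all 5 transcripts, and the models differ in the upstream exons and in the 3′ end of transcript 4.

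*Kiss1* was higher in every E2 sample than in any OVX sample for both models. For ENSMUSG00000115958 the log2 CPM was 2.29, 1.82 and 1.13 in OVX samples 1, 2 and 3 and 3.72, 3.80 and 3.45 in E2 samples 1, 2 and 3. The lowest E2 sample lay 1.16 above the highest OVX sample. The difference, E2 minus OVX on the log2 scale, was 1.91 (SE 0.26, 95% interval 1.35 to 2.47, n = 3 per group), a 3.76-fold higher level. The OVX samples had an SD of 0.59 and the E2 samples of 0.19.

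For ENSMUSG00000116158 the log2 CPM was -5.82, -0.65 and 0.10 in the OVX samples, and 2.97, 3.18 and 2.65 in the E2 samples. The value of OVX sample 1 is that of a count of 0, which at this depth allows up to 0.106 CPM. The difference was 5.05 with an SE of 1.09 and a 95% interval of 2.72 to 7.39, and it was 3.20 without OVX sample 1. Its size depends on the offset that stands for a count of 0, since with log2(CPM + 1) it was 2.53. Read counts rebuilt from the log2 CPM summed to 50.9 over the OVX samples and to 746 over the E2 samples. The mean was 0.559 CPM in OVX and 7.70 CPM in E2 samples. The authors kept genes with a mean CPM above 1 in at least 1 group, so this row was kept only through the E2 samples. Its separation of the groups is therefore not a second sign of the difference in *Kiss1*.

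Because the models share their coding bases, their rebuilt counts were also summed. The sum was 138, 142 and 90.4 reads in the OVX samples and 635, 780 and 555 reads in the E2 samples, or 4.87, 4.15 and 3.22 CPM against 20.996, 22.9 and 17.1 CPM. The SD of the log2 CPM was 0.30 in OVX and 0.22 in E2 samples, and the lowest E2 sample lay 1.81 above the highest OVX sample. On the log2 scale the summed *Kiss1* level differed by 2.32 (SE 0.19, 95% interval 1.92 to 2.73), a 5.01-fold higher level with E2. This value ran from 2.16 to 2.46 when each sample was left out in turn.

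**Figure D2:**
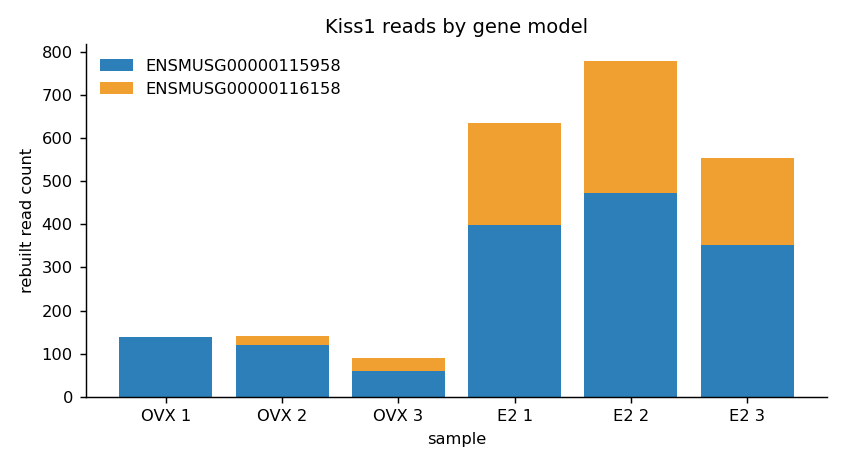
Rebuilt read counts of the 2 *Kiss1* gene models, stacked, in each of the 3 OVX and 3 E2 samples. The summed counts were 90.4 to 142 in OVX and 555 to 780 in E2 samples, and OVX sample 1 had no read in ENSMUSG00000116158.

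The share of *Kiss1* reads that was assigned to ENSMUSG00000116158 also differed among samples. It was 0% in OVX sample 1 (0 of 138 reads, which allows up to 2.18%), 15.0% in OVX sample 2 (95% Wilson interval 9.88 to 21.6%) and 32.8% in OVX sample 3 (24.5 to 43.6%). In the E2 samples it was 37.3% (33.6 to 41.2%), 39.3% (36.0 to 42.8%) and 36.4% (32.5 to 40.5%). These intervals and limits cover counting error only. The OVX samples were widely spread, and the interval of OVX sample 3 overlapped those of the E2 samples. The OVX mean was 15.9% ± 16.4 and the E2 mean 37.7% ± 1.48 (SD, n = 3 samples each), a difference of 21.7 percentage points. The groups did not overlap, but no test is given, since the share comes from the contrast by which *Kiss1* was chosen. Without OVX sample 1 the difference was 13.8 percentage points.

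*Gal* (ENSMUSG00000024907, chromosome 19 from 3409915 to 3414544, minus strand) had a log2 CPM of 1.26, 0.44 and 1.01 in OVX samples and 3.23, 3.13 and 2.48 in E2 samples. Every E2 sample was above every OVX sample, with a gap of 1.22. In rebuilt reads these were 67.0, 46.0 and 56.0 against 284, 297 and 180. The difference was 2.04 (SE 0.29, 95% interval 1.42 to 2.67), a 4.12-fold higher level with E2, and it ran from 1.81 to 2.28 when each sample was left out in turn. The SD was 0.42 in OVX and 0.41 in E2 samples, and counting alone would give about 0.19 and 0.09.

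Among all genes, 40 of 13886 (0.288%) had an adjusted p under 0.05 between the groups by limma with Benjamini-Hochberg adjustment. Of these, 32 (0.23% of the genes tested) were higher with E2 and 8 (0.0576%) were lower. Of the 6 member rows, *Gal* and *Kiss1* ENSMUSG00000115958 were past the threshold, both higher with E2. For 3 of the 6 rows every E2 sample was above every OVX sample, as in 6.85% of all genes. Since *Kiss1* and *Gal* were chosen for this difference, nothing is read from these counts.

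**Figure D3:**
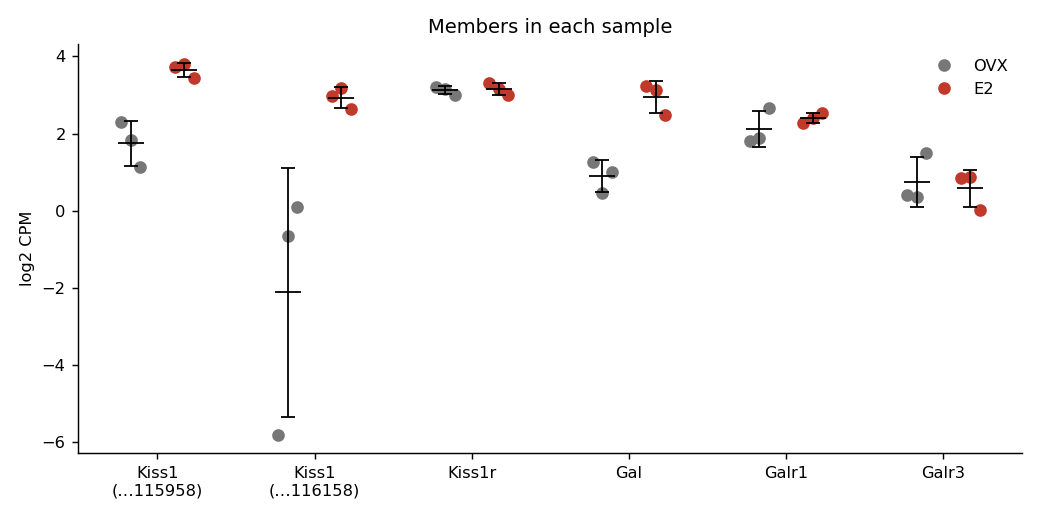
Log2 CPM of each member row in the 3 OVX (grey) and 3 E2 (red) samples, with the mean (long bar) and SD (error bar). The groups do not overlap for the 2 *Kiss1* models and *Gal* and overlap for *Kiss1r*, *Galr1* and *Galr3*, and OVX sample 1 sits at -5.82 for ENSMUSG00000116158.

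The levels of both peptide genes were also set against each other within each sample, per kilobase of the longest transcript (779 nt for *Kiss1*, both models summed, and 788 nt for *Gal*). The ratio of *Gal* to *Kiss1* reads per kilobase was 0.481, 0.321 and 0.613 in the OVX samples and 0.442, 0.377 and 0.321 in the E2 samples. The 2 groups overlapped in this ratio, and *Kiss1* was above *Gal* in every sample.

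*Kiss1r* (ENSMUSG00000035773, chromosome 10 from 79916971 to 79922273, plus strand), the kisspeptin receptor gene, was the member with the smallest range over the 6 samples. Its log2 CPM was 3.20, 3.17 and 3.01 in OVX samples and 3.31, 3.16 and 3.004 in E2 samples, from 225 to 306 rebuilt reads. The groups overlapped, and the difference was 0.03 (SE 0.16) with a 95% interval of -0.31 to 0.38, which spans folds of 0.81 to 1.297. The replicate SD was 0.10 in OVX and 0.15 in E2 samples, beside a counting SD of about 0.09 in each. Per kilobase, *Kiss1* stood 2.50, 2.18 and 1.89 times above *Kiss1r* in the OVX samples and 9.97, 12.1 and 10.1 times above it in the E2 samples.

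*Galr1* (ENSMUSG00000024553), a Gi/o-coupled galanin receptor gene, had a log2 CPM of 1.82, 1.89 and 2.66 in OVX samples and 2.28, 2.39 and 2.52 in E2 samples. OVX sample 3 was the highest of all 6, and the groups overlapped. The difference was 0.28 (SE 0.25, 95% interval -0.26 to 0.82), and it was 0.12 without OVX sample 1, 0.16 without OVX sample 2 and 0.55 without OVX sample 3. The OVX samples had an SD of 0.47 and the E2 samples of 0.12. Per kilobase, the level of *Gal* stood 2.57, 1.38 and 1.20 times above that of *Galr1* in the OVX samples and 7.37, 6.32 and 3.67 times in the E2 samples.

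*Galr3* (ENSMUSG00000114755, chromosome 15 from 79041885 to 79043558, plus strand), another Gi/o-coupled galanin receptor gene, was close to the lower end of the listed genes, with 32.2 to 78.2 rebuilt reads per sample. Its log2 CPM was 0.41, 0.34 and 1.49 in OVX samples and 0.85, 0.87 and 0.01 in E2 samples. The highest value, in OVX sample 3, and the lowest, in E2 sample 3, lay at opposite ends from the rest of their groups. The difference was -0.17 (SE 0.44, 95% interval -1.11 to 0.77), and its sign turned when OVX sample 3 (0.20) or E2 sample 3 (0.11) was left out, so at this depth and spread no direction can be given.

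**Figure D4:**
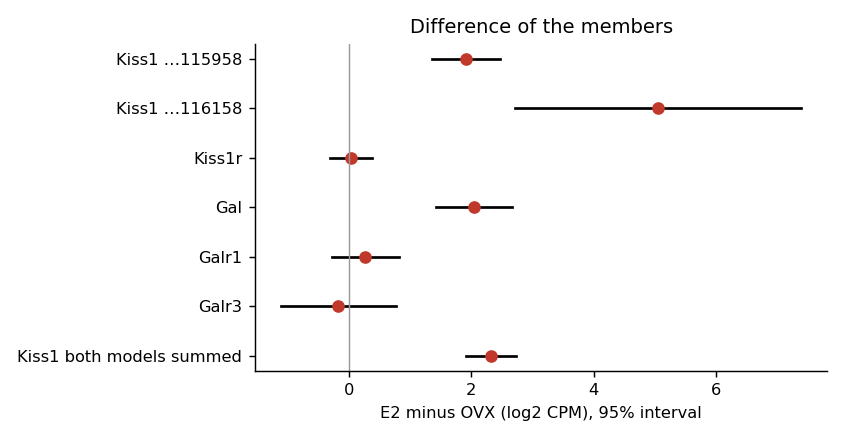
Difference of each member row, and of *Kiss1* with both models summed, as E2 minus OVX on the log2 CPM scale, with its 95% interval from limma. The differences were 0.03 for *Kiss1r*, 0.28 for *Galr1* and -0.17 for *Galr3*, and from 1.91 to 5.05 for the *Kiss1* rows and *Gal*. *Kiss1* and *Gal* were chosen by this contrast, so the intervals are a description and not a test.

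The order of the members was read per kilobase of the longest transcript, as log2 CPM per kilobase. In the E2 samples it was *Kiss1* ENSMUSG00000115958 (4.26 ± 0.19, SD, n = 3), *Kiss1* ENSMUSG00000116158 (3.29 ± 0.27), *Gal* (3.29 ± 0.41), *Kiss1r* (1.28 ± 0.15), *Galr1* (0.82 ± 0.12) and *Galr3* (0.26 ± 0.49). The ranges of ENSMUSG00000116158 and *Gal* overlapped, and those of the other neighbours in this order did not. In the OVX samples ENSMUSG00000115958 was again first (2.35 ± 0.59), and the ranges of *Kiss1r* (1.25 ± 0.10) and *Gal* (1.25 ± 0.42) overlapped, as did those of each later pair of neighbours. By the group mean of log2 CPM, not corrected for length, summed *Kiss1* ranked 8025 of the genes in E2 and 11914 in OVX samples, and *Gal* ranked 10740 in E2 and 12998 in OVX samples. *Kiss1r* was at ranks 10397 and 10407.

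The windows from 250 bases before to 50 after the start of *Kiss1*, *Gal* and *Kiss1r* (RefSeq, GRCm38.p6) were searched on both strands, because the values of both peptide genes were higher with E2. The full estrogen response element GGTCANNNTGACC was in none of the 3 windows, and it is in 0.0700% of all 32851 windows. Its half-site GGTCA, which is a part of the full element, is in 40.5% of all windows. It was found at 2 places before *Kiss1* and at 1 before *Gal*, and not in the *Kiss1r* window. They are shown with 8 bases on each side, on the gene's strand, with the half-site (GGTCA or its reverse complement, TGACC) in capitals.
*Kiss1*, 65 bases before the start, plus strand, chr1:133327139-133327159: tctctcttTGACCtaggctct
*Kiss1*, 36 bases before the start, plus strand, chr1:133327168-133327188: acgaactcTGACCtggtcttc
*Gal*, 26 bases before the start, minus strand, chr19:3414558-3414578: gcggttccGGTCAcagcggcc
Both *Kiss1* stretches lie within an exon of ENSMUSG00000115958, since the window is set on the start of a transcript of ENSMUSG00000116158.
The GC box GGGCGG, which is in 35.7% of all windows, was found 2 times in the *Kiss1r* window, once in that of *Gal* and not in that of *Kiss1*. The GC content was 55.3% for *Kiss1*, 63.3% for *Gal* and 70.7% for *Kiss1r*, against a median of 52.7% over all windows. A match to such short letters is a description and not a binding site.

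The nearest listed genes on the chromosomes of *Kiss1*, *Gal* and *Kiss1r*, 3 on each side of each, were looked at for their own differences. Of these 18 neighbours 0 were past the threshold by limma, beside 0.288% of all genes, so nothing is read from this count. The smallest adjusted p by limma was 0.815, and the differences of the neighbours ran from -0.17 (*Arid3a*) to 0.20 (*Sox13*). Beside *Kiss1* the closest was *Etnk2* at 41.7 kb, with a difference of 0.16 (SE 0.14). Beside *Gal* it was *Cpt1a* at 92.2 kb, with a difference of -0.05 (SE 0.16), and beside *Kiss1r* it was *R3hdm4* at 4.24 kb, with a difference of 0.02 (SE 0.06).

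The genes whose values over the 6 samples were most like those of *Kiss1* ENSMUSG00000115958 by Pearson's r were *Rplp0* (0.98), *Kcnk1* (0.98), *Asprv1* (0.98), *Nmd3* (0.98) and *Radil* (0.97). For *Gal* they were *Rcn1* (0.99), *Grik1* (0.99), *P2rx5* (0.99), *Cyp2s1* (0.98) and *Col18a1* (0.98). The OVX and E2 samples form separate groups for both peptide genes, so these values mostly carry the difference between groups. *Rplp0*, with a difference of 0.12, is matched in pattern and not in size. For *Kiss1r*, whose groups overlap, they included *Qsox1* (0.99), *S1pr5* (0.97), *Col20a1* (0.97) and *Csf1* (0.97), over a range of 0.31 in *Kiss1r* itself.

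Of 7 relatives of the peptides and receptors, *Npffr1*, a receptor gene for RF-amide peptides, was the 1 listed, at 3.95 log2 CPM on average, and its difference was 0.09 (SE 0.20, adjusted p = 0.948, limma). *Galp*, *Spx*, *Gpr151*, *Npvf*, *Npff* and *Npffr2* are not among the listed genes.

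Genes that carry the signal of the receptors were widely present. In the lists that follow, which were made with earlier results of these data known, counts at an unadjusted p under 0.05 stand beside 8.56% of all genes (1188 of 13886), and the highest genes are those by mean log2 CPM, not corrected for length. All 25 genes of Gq signalling were listed, with mean log2 CPM from 2.40 to 9.35, and 0 passed the threshold by limma in either direction, while 4 had an unadjusted p under 0.05. Their median difference was -0.004, against 0.003 over all genes. *Prkca*, a protein kinase C gene, had a difference of 0.23 (SE 0.05, adjusted p = 0.125).

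Of 24 genes of Gi/o signalling 23 were listed, 0 passed by limma and 3 had an unadjusted p under 0.05, with a median difference of -0.02. The G protein subunit genes *Gnao1* (mean log2 CPM 9.56, difference 0.02) and *Gnb1* (9.17, difference -0.06) were the highest. The smallest p were those of *Gng2*, a G protein gamma subunit gene (0.22, SE 0.06, adjusted p = 0.279), and *Kcnj9*, a subunit of the G protein-gated potassium channels (-0.16, SE 0.06, adjusted p = 0.429).

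Of 19 peptide and transmitter genes known from hypothalamic kisspeptin neurons 18 were listed, and *Agrp* was not. By limma 0 passed the threshold, 4 had an unadjusted p under 0.05, and the median difference was 0.12. *Penk*, the proenkephalin gene, had the highest mean (8.37) and a difference of 0.10. *Slc17a6*, the vesicular glutamate transporter 2 gene, was next (7.67), with a difference of 0.40 (SE 0.09, adjusted p = 0.117), and *Gad2*, a GABA-synthesizing enzyme gene, had a difference of 0.31 (SE 0.09, adjusted p = 0.251). For both, the E2 samples lay above the OVX samples without passing the threshold.

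All 18 genes of peptide processing and dense-core vesicles, which peptide precursors need to be cut and stored, were listed. Their mean log2 CPM ran from 4.26 to 10.6, 0 passed by limma, 5 had an unadjusted p under 0.05, and the median difference was -0.03. *Scg2*, the secretogranin II gene, had a difference of 0.49 (SE 0.10, adjusted p = 0.0608, limma). In the authors' own voom analysis *Scg2* was among the genes significantly higher with E2, so its call depends on the method. *Cpe*, the carboxypeptidase E gene, had a difference of 0.01. *Ptprn2*, a vesicle membrane protein gene, had a difference of -0.22 (SE 0.06, adjusted p = 0.212, limma).

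All 6 sex steroid receptor and aromatase genes were listed, and 1 passed the threshold, lower with E2. The aromatase gene *Cyp19a1* was thus listed, whereas the authors state that MeA *Kiss1* cells do not express it. The lowest mean log2 CPM in this list was 0.83. *Esr1*, the estrogen receptor alpha gene, had a log2 CPM of 5.25, 4.93 and 5.30 in OVX samples and 4.62, 4.39 and 4.35 in E2 samples. It fell by 0.70 on the log2 scale with E2 (SE 0.12, adjusted p = 0.0189, limma), opposite in sign to *Kiss1* and *Gal*, with no overlap between groups. Its adjusted p ran from 0.00467 to 0.407 over 15 alternatives, and it was past the threshold in 11 of them, but not without OVX sample 1, OVX sample 3 or E2 sample 2, nor without the mean-variance trend.

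Of 9 genes of the kisspeptin target cells and the GnRH axis 2 were listed, and both rose with E2, beside 0.288% of all genes past the threshold. The list was made with earlier results of these data known, so nothing is read from this share. *Fgfr1*, a fibroblast growth factor receptor gene, had a log2 CPM of 6.87, 6.99 and 7.03 in OVX and 7.50, 7.81 and 7.67 in E2 samples, a difference of 0.70 (SE 0.08, adjusted p = 0.000948, limma). *Prokr2*, a prokineticin receptor gene, had values of 3.06, 3.07 and 3.57 against 4.24, 4.44 and 4.00, a difference of 0.99 (SE 0.17, adjusted p = 0.0211, limma). *Fgfr1* stayed past the threshold in 14 of 15 alternatives (adjusted p 0.000346 to 0.315) and *Prokr2* in 11 of 15 (0.0104 to 0.402), and both lost it without the mean-variance trend. *Prokr2* also lost it without OVX sample 1, E2 sample 1 or E2 sample 2. *Gnrh1*, *Gnrhr*, *Lhb*, *Fshb*, *Cga*, *Prok2* and *Fgf8* are not among the listed genes.

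Markers of other cells were present beside the members. The 10 MeA marker genes were all listed, with mean log2 CPM from 1.77 to 9.09. The highest was *Cck*, which averaged 9.41 log2 CPM per kilobase. By limma 1 of the 10, *Esr1*, was past the threshold, lower with E2. *Slc1a3* had the highest mean log2 CPM of the 6 astrocyte markers (7.81, the lowest being 4.93). Per kilobase its mean over all samples (5.66) was above that of every member row, of which *Kiss1* ENSMUSG00000115958 was the highest (3.31). Summed *Kiss1* was at 2.37 per kilobase in OVX and 4.70 in E2 samples. All 7 oligodendrocyte and 6 astrocyte markers were listed. Their summed levels were 1311 to 1829 CPM and 555 to 722 CPM in OVX samples, and 1423 to 1982 CPM and 641 to 833 CPM in E2 samples. All 6 astrocyte markers had higher means with E2 (median difference 0.13), as did 6 of the 7 oligodendrocyte markers (median 0.15). By limma 0 of either list passed the threshold, and 1 astrocyte and 2 oligodendrocyte markers had an unadjusted p under 0.05. As in any bulk sample, more transcript per cell and more cells of a type cannot be told apart. Groups of markers that did not overlap between treatments were those of erythroid cells and of forebrain excitatory neurons outside the MeA. Erythroid markers (4 of 5 listed) had 120 to 228 CPM in OVX and 280 to 447 CPM in E2 samples. All 4 had higher means with E2, 2 were past the threshold by limma, and 4 had an unadjusted p under 0.05. The forebrain markers (7 of 7 listed) had 870 to 1119 CPM in OVX and 661 to 860 CPM in E2 samples. All 7 had lower means with E2 (median difference -0.42), 0 were past the threshold by limma, and 5 had an unadjusted p under 0.05. Over all genes 0.288% were past the threshold and 8.56% had an unadjusted p under 0.05. In 6.85% of all genes every E2 sample was above every OVX sample. The part of both marker groups in the difference of *Kiss1* and *Gal* was not tested. The summed levels of neuron, microglia, endothelial and mural, hypothalamic neuron, and striatal and central amygdala neuron markers overlapped between groups, and so did those of the MeA list. Those of choroid plexus markers also overlapped (683 to 1069 CPM in OVX and 393 to 1009 CPM in E2), but all 5 of these genes had lower means with E2, with differences from -0.78 to -0.40 and a median of -0.61. By limma 0 of them passed the threshold, 2 had an unadjusted p under 0.05, and their part in the difference of the members was not tested.

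*Gal* is also strongly expressed in the pituitary, so pituitary markers were set beside it. Of 11 anterior pituitary genes 3 were listed, and 8, among them *Pou1f1*, *Pitx1* and *Cga*, were not. *Prl* had a log2 CPM of 2.08, 9.68 and 6.08 in OVX samples and 6.80, 7.76 and -1.26 in E2 samples, and *Gh* had -0.04, 7.66 and 3.68 against 3.36, 3.42 and -4.43. The highest *Prl* and *Gh* were in OVX sample 2, which had the lowest *Gal* of all samples. The lowest *Prl* and *Gh* were in E2 sample 3, which had the lowest *Gal* of the E2 samples (2.48). Without OVX sample 2 the difference of *Gal* was 1.81, and without E2 sample 3 it was 2.28. The part of pituitary tissue in the difference of *Gal* was not tested.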

How the data were processed

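The data were RNA-seq of RiboTag immunoprecipitates from 6 pooled MeA samples, 3 OVX and 3 E2. The values used were the log2 CPM deposited by the authors, who trimmed reads (Trimmomatic 0.38), aligned them with STAR 2.6.0a to GRCm38, quantified them with RSEM, kept protein-coding genes with a mean CPM above 1 in at least 1 group, and applied TMM scaling and voom. The library kit was unstranded, so overlapping genes on opposite strands could not be told apart. A deposited table of the authors' own comparisons (log2 fold changes and p-values) was not used.

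Groups came from the sample labels, and ages and treatment times from the study's methods. Samples were separate pools of mice. E2 and OVX samples were compared over 13886 genes by limma (version 3.58.1, R 4.3.3), fitted to the log2 CPM with an empirical Bayes trend of variance on mean (prior degrees of freedom 9.55), two-sided, with Benjamini-Hochberg adjustment and a threshold of 0.05. The fit was also tested on simulated data. An exact permutation test planned for the share of *Kiss1* reads is not reported, because *Kiss1* was chosen by the same contrast. Counts were rebuilt by taking the lowest value per library as no read at all, to which voom adds 0.5, and had at most 2 decimals (within 0.001) in all values, as RSEM counts do. Intervals of shares are Wilson intervals of rounded counts, at 95%. A limit for a count of 0 is 3 counts.

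The members and the lists of pathway and marker genes were chosen with earlier results of these data known. Genes named are the members, list genes past the threshold, the 2 highest and the 2 with the smallest p of each pathway list, 3 neighbours on each side, the 5 most similar genes, and markers with a gap above 2 between the highest and next sample. A few genes under this rule are not reported here. *Slc1a3*, *Cck* and *Prl* were chosen after their values were seen. Positions and lengths came from GENCODE mouse release 21, which differs from the Ensembl release 98 of the authors. Alternatives were other scalings, filters, pseudocounts and weights, a replicate block and leaving out each sample. Summing the *Kiss1* models with log2(CPM + 1), or without each sample, was added after seeing the data.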

Additional observations from a re-analysis of the deposited data

How the results depend on the processing

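With 3 samples per group, no exact test of a single gene can reach a p below 0.1. The number of genes past the threshold was 40, between 41 and 46 with other weights, scalings, filters and pseudocounts, and 20 to 66 with each sample left out, the lowest without E2 sample 2 and the highest without E2 sample 3. It was 21 without OVX sample 1 and 26 without E2 sample 1. Without the mean-variance trend limma called 0 genes, with 1017 at an unadjusted p under 0.05. Of the 93 pathway genes 3 passed, 4 with voom weights and 0 without the trend. With each sample left out this count was 1 to 5 (1 without OVX sample 1 or E2 sample 2, and 5 without E2 sample 3).

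The differences of the members kept their direction in each alternative, except *Kiss1r* (-0.04 to 0.11) and *Galr3* (-0.37 to 0.20). That of *Galr1* ran from 0.12 to 0.55. With log2(CPM + 1), which understates changes of low genes, the difference was 2.53 for *Kiss1* ENSMUSG00000116158 and 1.60 for *Gal*. With each sample left out the former ran from 3.20 to 6.17. The share of *Kiss1* reads in that model differed by 13.8 to 30.2 percentage points, the lowest without OVX sample 1. Rows with a mean log2 CPM under 1, ENSMUSG00000116158 and *Galr3*, have no value under the filter at 1.

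Same-numbered samples did not deviate together (correlations of -0.02, -0.12 and -0.08 across genes), so they share only a number. The replicate block gave 35 genes past the threshold and a difference in the share of 21.7 percentage points.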
